A study of Capra hircus with 20 samples.

Results

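A group of 10 genes of the contractile apparatus was followed across goat intramuscular and subcutaneous cells before and after induction of adipogenesis: ACTA1, ACTC1, ACTN2, TTN, NEB, DES, LDB3, TCAP, CSRP3 and MYBPC1. They were chosen by symbol, as all rows of the mRNA expression table that carry one of these symbols, and the transcripts of each symbol were summed. They are 10 of the 20587 genes in that table and are spread over 53 annotated transcripts. All 10 passed the filter on low values, which asked for an average of 1 FPKM or more across all 20 libraries, and so did 11432 genes in all.

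In striated muscle, thin filaments of actin are anchored at the Z-disc, where alpha-actinin cross-links filaments of opposite polarity. Titin spans from the Z-disc to the M-band and nebulin runs along the thin filament, while desmin links the Z-discs of neighbouring myofibrils. Most of these genes are switched on when myoblasts leave the cell cycle and fuse, and the group is not part of the fat cell programme. MYBPC1 is the exception by location, since myosin-binding protein C sits on the thick filament and reaches towards actin.

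The libraries came from primary cells of male Jianzhou Daer goats (Capra hircus) that were 7 days old. Intramuscular cells were released with collagenase from the longissimus dorsi, a back muscle, and subcutaneous cells from fat under the skin, and both were passaged in culture with no sorting step described. Intramuscular preadipocytes (IMPA) and subcutaneous preadipocytes (SPA) were taken at day 0, and intramuscular adipocytes (IMA) and subcutaneous adipocytes (SA) after 3 days in medium with oleic acid. No genotype or other agent distinguished the groups. No culture kept without oleic acid to day 3 was among the libraries, so the agent and the time in culture cannot be told apart. Induction below stands for both. Each group held 5 libraries of total RNA with strand information, numbered 1 to 5, and no label ties a number to a goat or a culture, so p values measure the spread between these libraries.

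The deposited values were FPKM, a count of fragments scaled by transcript length and by the number mapped in the library, which allows levels of genes of different length to be compared. No read counts came with them, so the depth behind a value is unknown, no counting interval can be given, and a value listed at 0 cannot be told apart from a very low one. Summed over the mRNA table, a library held from 373889 to 413880 FPKM. The share of reads mapped was higher in every IMPA library than in any other library. It was also higher in every SPA library than in any SA library, so that within each cell type it cannot be told apart from stage. The labelled cell types were checked with marker lists. The 9 skeletal muscle markers measured, none of them among the 10 genes, summed to between 1858 and 2096 FPKM in IMPA, between 6310.2 and 6655 FPKM in IMA, and at most 15.8 FPKM in SPA and 8.28 FPKM in SA. The 9 adipocyte markers measured summed to at most 14.4 FPKM in any library of all 4 groups. FABP4, also on that list, was absent from the mRNA table. Single markers moved in different directions. The fat cell regulator PPARG averaged 0.475 FPKM in IMPA, 0.364 in IMA, 0.624 in SPA and 1.03 in SA. CEBPA averaged 9.23, 5.42, 5.05 and 3.91 FPKM in the same order, and CD36 averaged 0.252, 4.91, 0.0679 and 0.934 FPKM. The paper reports lipid droplets by Oil Red O staining in both cell types after induction, with lower expression of a differentiation marker gene. Markers of stromal progenitors summed to between 1024 and 1458 FPKM in intramuscular libraries and between 5224 and 7220.4 FPKM in subcutaneous ones. The part that a share of muscle cells has in the results below was not tested, and in these bulk samples more cells of a type and more RNA per cell cannot be told apart.

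All 10 genes were expressed in intramuscular libraries and stood far lower in subcutaneous ones. There NEB was at 1.31 FPKM or more in every library and ACTN2 at 2.10 FPKM or more in every SPA library, while the other 8 genes were mostly below 1 FPKM. Together they made up between 0.567% and 0.699% of the mRNA FPKM of an IMPA library and between 1.37% and 1.54% of an IMA library. In SPA and SA libraries the share was at most 0.00325% and 0.00136%. In IMPA the order of mean levels ran from ACTC1 at 1444 ± 151 FPKM (SD, n = 5) through DES, ACTA1, CSRP3, ACTN2, TTN, NEB, MYBPC1 and TCAP to LDB3 at 2.97 ± 0.441 FPKM. The ranges of CSRP3 and ACTN2, of ACTN2 and TTN, and of TTN and NEB overlapped in IMPA, and those of the other neighbours did not. In IMA the order was the same except that MYBPC1 stood between ACTN2 and TTN, and no neighbours overlapped.

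**Figure D1:**
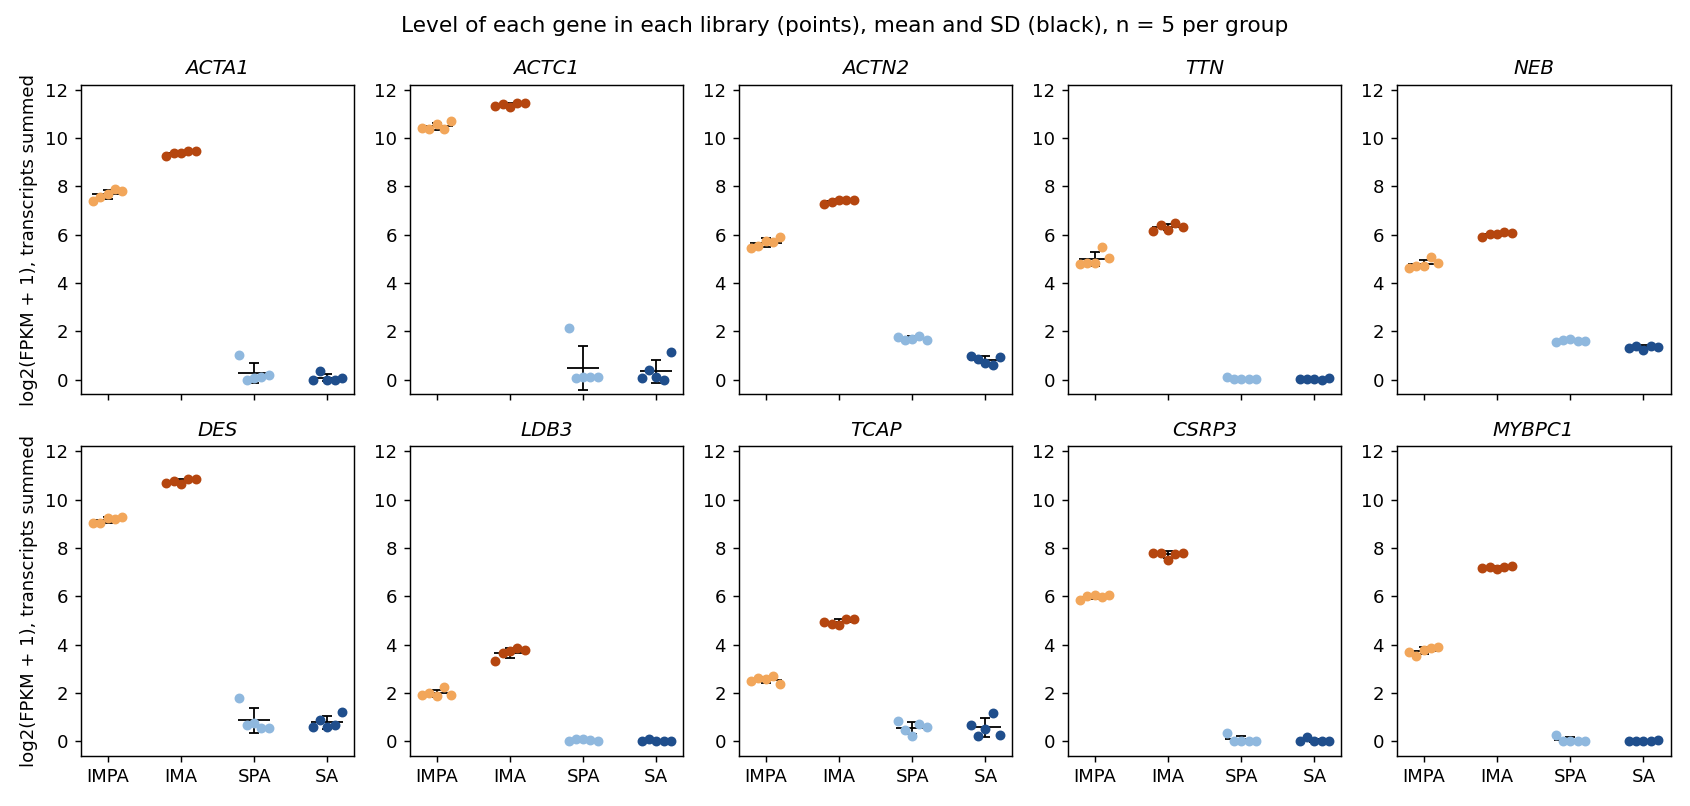
Each panel plots 1 gene, with the group on the horizontal axis and the level as log2(FPKM + 1), transcripts summed, on the vertical axis. Points are libraries, and the black line and bars are the mean and SD of the 5 libraries of a group. In every panel all IMA points lie above all IMPA points, and both lie above all SPA and SA points.

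Induction of the intramuscular cells was examined first. All 10 genes were higher in IMA than in IMPA, with ratios of mean FPKM between 1.86 for ACTC1 and 11.7 for MYBPC1. In limma on log2(FPKM + 1), with adjustment over all 11432 genes, 10 of 10 passed an adjusted p of 0.05 as higher and none as lower. Over all genes tested, 19.9% were called higher and 40.2% lower in IMA. In each of the 10 genes the lowest IMA library lay above the highest IMPA library, which held for 14.3% of all genes tested. The median difference of the 10 genes was 1.70 on the log2 scale, beside a median of -0.09 over all genes tested.

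**Figure D2:**
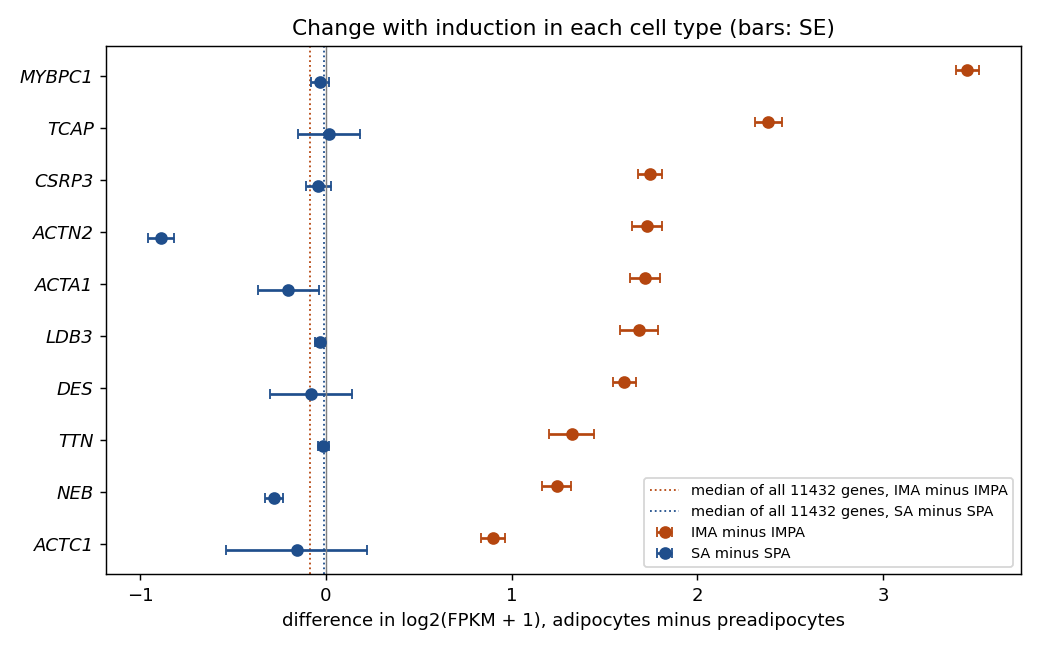
For each gene, the horizontal axis gives the difference in mean log2(FPKM + 1) between adipocytes and preadipocytes, in intramuscular (IMA minus IMPA) and subcutaneous cells (SA minus SPA). Bars are SE from limma with 5 libraries per group, and dotted lines mark the median over all 11432 genes. Intramuscular differences run from 0.90 to 3.45, and subcutaneous differences from -0.89 to 0.02.

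The striated actins form the core of the thin filament. ACTC1, the cardiac alpha-actin that developing skeletal muscle also uses, was the most abundant of the 10 genes, at 1356, 1310.3, 1550.0, 1347 and 1657 FPKM in IMPA1 to IMPA5. In IMA1 to IMA5 it stood at 2592, 2697, 2503, 2827 and 2810.1 FPKM. The groups did not overlap, and the difference of 0.90 ± 0.0667 (SE) on the log2 scale was the smallest of the 10 (limma, adjusted p = 5.4e-07). ACTA1, the alpha-actin of adult skeletal muscle, was at 169, 191, 204, 237 and 220.4 FPKM in IMPA1 to IMPA5. After induction, in IMA1 to IMA5, it was at 605, 667, 672, 704 and 707 FPKM. Every IMA library was higher than every IMPA library, by 1.72 ± 0.0799 (SE) on the log2 scale (limma, adjusted p = 8.2e-09).

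ACTC1 therefore stayed the more abundant striated actin at both stages, while the share of ACTA1 in their sum was between 11.1% and 14.9% in IMPA and between 18.9% and 21.2% in IMA. The other 4 actin genes were called lower in IMA. ACTA2, the smooth muscle alpha-actin, averaged 388 ± 46.9 FPKM in IMPA and 289.9 ± 37.4 FPKM in IMA (SD, n = 5; limma log2 difference -0.42, adjusted p = 0.0026). ACTG1, a cytoplasmic actin, averaged 1308 ± 63.2 FPKM in IMPA and 955 ± 28.0 FPKM in IMA (log2 difference -0.45, adjusted p = 2.1e-06). ACTB, the cytoplasmic beta-actin, and ACTG2, the other smooth muscle actin, had log2 differences of -0.52 and -0.26. ACTA1 and ACTC1 together made up between 39.0% and 42.3% of the FPKM of the 6 actin genes in IMPA and between 62.9% and 67.1% in IMA. This share was chosen after its values had been seen and is given without a test. Coding sequences of the actins are near-identical, so the split of reads between these genes is uncertain.

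**Figure D3:**
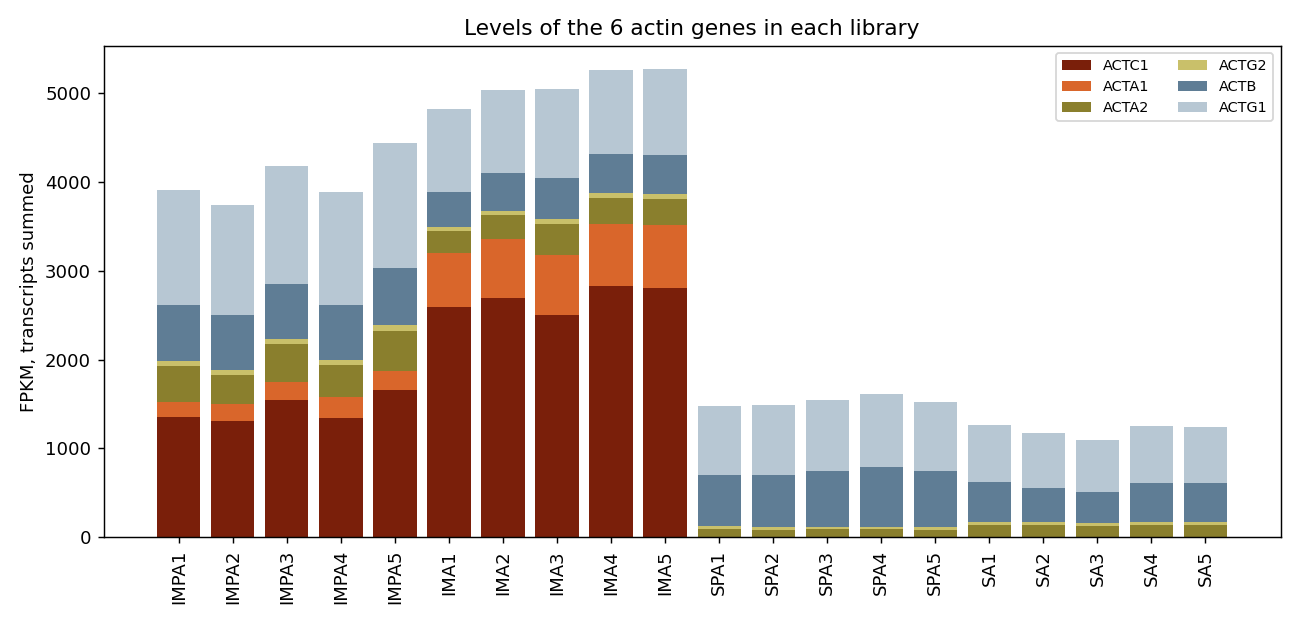
Bars stack the FPKM of the 6 actin genes in each of the 20 libraries, with FPKM on the vertical axis. The 2 striated actins, at the bottom of each bar, fill 39.0% to 42.3% of the IMPA bars and 62.9% to 67.1% of the IMA bars, and at most 0.297% of the SPA bars and 0.102% of the SA bars.

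ACTN2 encodes the alpha-actinin of the sarcomeric Z-disc. Its levels were 42.2, 45.3, 53.1, 51.5 and 59.3 FPKM in IMPA1 to IMPA5. In IMA1 to IMA5 they were 153, 164, 174, 175 and 173 FPKM. The groups were far apart relative to their spread, with a log2 difference of 1.73 ± 0.0797 (SE; limma, adjusted p = 7.7e-09). The non-muscle alpha-actinins ACTN1 and ACTN4 were called lower in IMA, with log2 differences of -0.35 and -0.41, and ACTN3, the fast-fibre alpha-actinin, was at 5.95 ± 0.686 FPKM in IMPA and 6.55 ± 0.840 FPKM in IMA (SD, n = 5; adjusted p = 0.27). ACTN2 made up between 36.3% and 42.4% of the FPKM of the 4 alpha-actinins in IMPA and between 73.0% and 74.9% in IMA, again a share chosen after its values had been seen.

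The giant proteins of the sarcomere, titin and nebulin, rose with log2 differences of 1.32 and 1.24. TTN, the molecular spring and ruler of the half-sarcomere, was at 26.4, 27.3, 27.6, 43.8 and 31.6 FPKM in IMPA1 to IMPA5. In IMA1 to IMA5 it was at 70.1, 83.5, 72.8, 87.4 and 79.9 FPKM. IMPA4 was the highest of its group, yet below all IMA libraries, with an SE of the difference of 0.121 (limma, adjusted p = 3.0e-06). With the mapped share of each library as a covariate, which separates IMPA from IMA almost as the stage does, the TTN difference was 0.98 and did not pass (adjusted p = 0.22). NEB, the nebulin that runs along the thin filament, was at 23.5, 24.8, 25.3, 32.7 and 27.2 FPKM in IMPA1 to IMPA5. After induction, in IMA1 to IMA5, it was at 58.6, 64.4, 63.5, 68.0 and 66.4 FPKM. The groups did not overlap, and the SE of the difference was 0.0770 (limma, adjusted p = 1.2e-07). NEBL, the nebulin-like paralog of cardiac muscle, averaged at most 0.0149 FPKM in any group and was not tested.

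DES encodes desmin, the muscle intermediate filament protein, and was the gene of second highest level. It was at 521, 527, 609, 578 and 627 FPKM in IMPA1 to IMPA5. In IMA1 to IMA5 it was at 1653, 1737, 1611, 1856 and 1860.3 FPKM. Every IMA library was above every IMPA library, by 1.61 ± 0.0618 (SE) on the log2 scale (limma, adjusted p = 1.6e-09). VIM, the intermediate filament gene of mesenchymal cells, averaged 1162 ± 67.3 FPKM in IMPA and 1365 ± 101 FPKM in IMA (SD, n = 5; log2 difference 0.23, adjusted p = 0.0045).

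Among the proteins bound to the Z-disc, TCAP, which caps the end of titin, had the largest change. It was at 4.65, 5.12, 4.87, 5.54 and 4.17 FPKM in IMPA1 to IMPA5 and at 29.3, 27.5, 26.7, 31.9 and 32.7 FPKM in IMA1 to IMA5. The ratio of means was 6.08 and the log2 difference 2.38 ± 0.0721 (SE; limma, adjusted p = 2.0e-10), with no overlap. CSRP3, the muscle LIM protein of the Z-disc, was at 56.7, 62.6, 65.5, 62.4 and 64.7 FPKM in IMPA1 to IMPA5. After induction, in IMA1 to IMA5, it was at 221, 223, 179, 216 and 219.9 FPKM. IMA3 lay below the other IMA libraries and above all IMPA libraries, and the log2 difference was 1.74 ± 0.0626 (SE; limma, adjusted p = 9.0e-10). Its paralogs CSRP1 and CSRP2, expressed outside striated muscle as well, differed by -0.00 and -0.02 on the log2 scale and did not pass.

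LDB3, a PDZ and LIM domain protein that binds alpha-actinin, was the lowest of the 10 genes. It was at 2.76, 2.94, 2.68, 3.74 and 2.73 FPKM in IMPA1 to IMPA5 and at 9.0, 11.6, 12.1, 13.7 and 12.5 FPKM in IMA1 to IMA5. The groups did not overlap, and the log2 difference was 1.69 ± 0.101 (SE; limma, adjusted p = 8.8e-08). Of its PDZ and LIM relatives, PDLIM3, another alpha-actinin partner, averaged 113 ± 8.62 FPKM in IMPA and 290.0 ± 11.4 FPKM in IMA (SD, n = 5; log2 difference 1.36, adjusted p = 1.4e-09). PDLIM5 was called higher by 0.38, and PDLIM7 was called lower, with a difference of -0.58.

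MYBPC1, the slow-fibre myosin-binding protein C, changed more than any other of the 10 genes. It was at 11.8, 10.6, 12.6, 13.6 and 13.8 FPKM in IMPA1 to IMPA5. In IMA1 to IMA5 it was at 144, 149, 138, 149 and 149 FPKM. The ratio of means was 11.7 and the log2 difference 3.45 ± 0.0625 (SE; limma, adjusted p = 3.6e-12). With this rise MYBPC1 passed TTN and NEB in level, from below all libraries of both genes in IMPA to above all of them in IMA. MYBPC2 and MYBPC3, the fast-fibre and cardiac paralogs, stayed at means of at most 0.572 and 0.163 FPKM and were not tested. MYBPH, a relative that lacks part of the protein, rose from 48.2 ± 3.36 to 178 ± 8.18 FPKM (SD, n = 5; log2 difference 1.86, adjusted p = 8.6e-11).

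For NEB and MYBPC1 the sum of transcripts varied less between libraries than the transcripts behind it. NEB was split over 23 transcripts, MYBPC1 over 12 and LDB3 over 9, TTN and CSRP3 had 2 each, and the other genes had 1. In IMA the coefficient of variation of the NEB sum was 5.59%, while those of the 16 NEB transcripts that averaged 1 FPKM or more ran from 49.8% to 94%. The NEB transcript with the highest mean over the 20 libraries, XM_018062902.1, was at 18.4, 12.8, 16.8 and 9.40 FPKM in IMA2 to IMA5 and listed at 0 in IMA1, although the NEB sum in IMA1 was 58.6 FPKM. In all, 16 NEB transcripts were listed at 0 in some but not all IMA libraries.

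A fit of the 16706 transcripts that averaged 1 FPKM or more held 18 transcripts of these genes. Of the 18, 14 were called higher in IMA and none lower, beside 12% of all transcripts called higher. For NEB only 1 of 5 transcripts passed, with log2 differences between -0.75 and 2.08, and XM_018062948.1 was the 1 that passed. XM_018062902.1, which led in IMPA, differed by -0.02 (adjusted p = 0.99). XM_018062861.1, which led in IMA, averaged 1.67 FPKM in IMPA and 11.8 FPKM in IMA, was listed at 0 in IMA1, and did not pass (log2 difference 1.78, adjusted p = 0.092). Which single transcript stands for NEB thus changes the difference. For MYBPC1 all 4 transcripts tested passed, with log2 differences between 2.15 and 5.14. The MYBPC1 transcript that led in IMA, XM_013964026.2, was at 48.5, 57.2, 55.4, 56.6 and 42.3 FPKM in IMA1 to IMA5. It was at 2.84 FPKM in IMPA2 and 0.969 FPKM in IMPA3 and was listed at 0 in the other IMPA libraries. In IMPA the leading one was XM_013964022.2, with 48.4% of the MYBPC1 FPKM on average against 19.1% in IMA. How reads were divided between overlapping transcripts was set by the authors' assembly and was not tested.

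**Figure D4:**
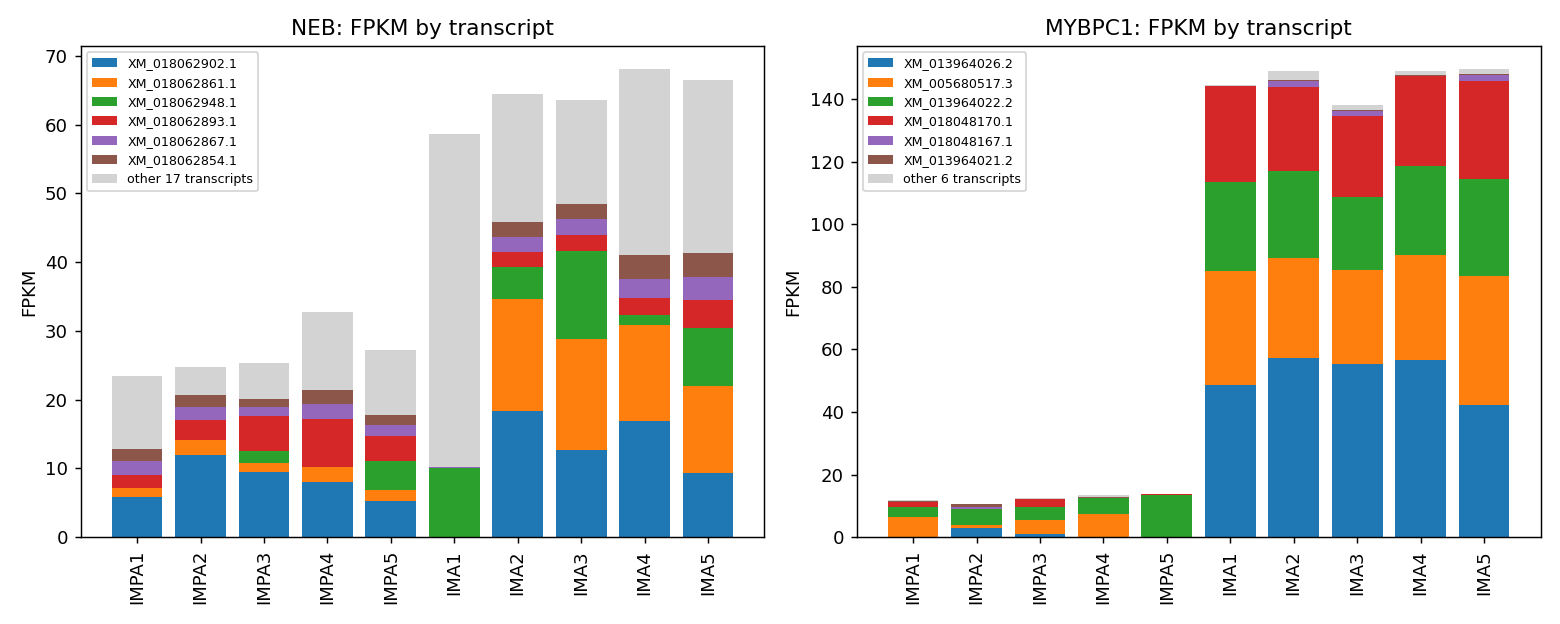
Bars stack the FPKM of the transcripts of NEB (left) and MYBPC1 (right) in the 10 intramuscular libraries, with the 6 transcripts of highest mean in colour and the others in grey. The total height varies little within IMA, with coefficients of variation of 5.59% for NEB and 3.30% for MYBPC1. It varies more within IMPA, with 13.6% and 10.7%. The NEB colours change from library to library, and in IMA1 the coloured part is almost wholly XM_018062948.1, at 10.1 FPKM.

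In subcutaneous cells the same induction gave a different picture, at levels of a few FPKM or less. Of the 10 genes, ACTN2 and NEB were called lower in SA than in SPA and none was called higher, beside 26.0% and 26.1% of all genes tested. All 10 genes had passed the filter through their intramuscular levels, so their number in this comparison is not a count of genes expressed there. ACTN2 was at 2.41, 2.10, 2.23, 2.51 and 2.11 FPKM in SPA1 to SPA5 and at 0.964, 0.830, 0.627, 0.543 and 0.912 FPKM in SA1 to SA5. Its groups did not overlap, and its mean was 2.93 times as high in SPA (log2 difference -0.89 ± 0.0711 SE; limma, adjusted p = 6.0e-07).

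NEB was at 1.98, 2.09, 2.20, 2.05 and 2.01 FPKM in SPA1 to SPA5. In SA1 to SA5 it was at 1.51, 1.66, 1.31, 1.64 and 1.52 FPKM. These sums rested on different transcripts in different libraries. XM_018062854.1 was at 1.79 FPKM in SPA1, and XM_018062997.1 at 1.51 FPKM in SPA2, 1.60 FPKM in SPA5 and 1.48 FPKM in SA4. XM_018062997.1 was listed at 0 in all intramuscular libraries. The groups did not overlap either, with a log2 difference of -0.28 ± 0.0481 (SE; limma, adjusted p = 0.00042). The NEB call was lost with the mapped share as a covariate, which separates SPA from SA as well (-0.26, adjusted p = 0.072). It was also lost in XM_018062902.1 in place of the sum (-0.05, adjusted p = 0.55). That transcript was listed at 0 in 4 of 5 SPA and 4 of 5 SA libraries, so it could hardly show a fall. No overlap in this direction was found for 19.0% of all genes tested. The other 8 genes had limma differences between -0.20 and 0.02 with adjusted p values between 0.33 and 0.95.

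In several of the other 8 genes 1 library stood above the rest of its group. ACTC1 was at 3.37 FPKM in SPA1 and between 0.0356 and 0.0868 FPKM in the other SPA libraries. DES was at 2.47 FPKM in SPA1 and between 0.439 and 0.690 FPKM in the others. ACTA1 was at 1.03 FPKM in SPA1 and at most 0.160 FPKM in the others. CSRP3 and MYBPC1 were at 0.282 and 0.187 FPKM in SPA1 and listed at 0 in SPA2 to SPA5. SPA1 was the highest of the SPA libraries for 7 of the 10 genes.

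Set against the IMA mean of each gene, what SPA1 held above the median of the other SPA libraries was of similar size for 6 genes, picked out after the values were seen. It was 0.142% for ACTA1 and for ACTN2, 0.123% for ACTC1, 0.111% for DES, 0.133% for CSRP3 and 0.128% for MYBPC1. For ACTN2, however, SPA1 was at 2.41 FPKM and the highest other SPA library at 2.51 FPKM, so SPA1 did not stand apart. It was 0.0779% for TTN and 1.19% for TCAP, and SPA1 lay below that median for NEB (-0.133%) and LDB3 (-0.227%). Set against the IMPA mean it was less even, from 0.228% for ACTC1 to 1.5% for MYBPC1 among the same 6 genes. From the related list, 16 sarcomere genes were picked for low means in SPA2 to SPA5 and high means in IMA. SPA1 was highest of the SPA libraries in 11 of them, with a median of 0.101% of the IMA mean. Picking genes that are low in SPA2 to SPA5 itself favours SPA1 as the highest, so this count is no test. The 9 other skeletal muscle markers reached their highest subcutaneous sum in SPA1 as well, at 15.8 FPKM. SPA1 and SA5 also lost fewer reads to quality filtering than the other subcutaneous libraries, and the part of this in these values was not tested. Whether reads of other libraries entered SPA1 was not tested either.

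Among the SA libraries, SA5 was the highest for ACTC1 (1.23 FPKM), DES (1.31 FPKM), TTN and MYBPC1. SA2 was the highest for ACTA1 (0.286 FPKM), CSRP3 (0.115 FPKM), NEB and LDB3. Without SPA1 the differences of ACTC1, DES, TTN, CSRP3 and MYBPC1 between SA and SPA changed sign, to 0.25, 0.15, 0.00, 0.03 and 0.02 on the log2 scale, and they passed the test neither with it nor without it. The level in SPA1 was within the range of SPA2 to SPA5 for ACTN2 and below that range for NEB, at 1.98 FPKM.

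**Figure D5:**
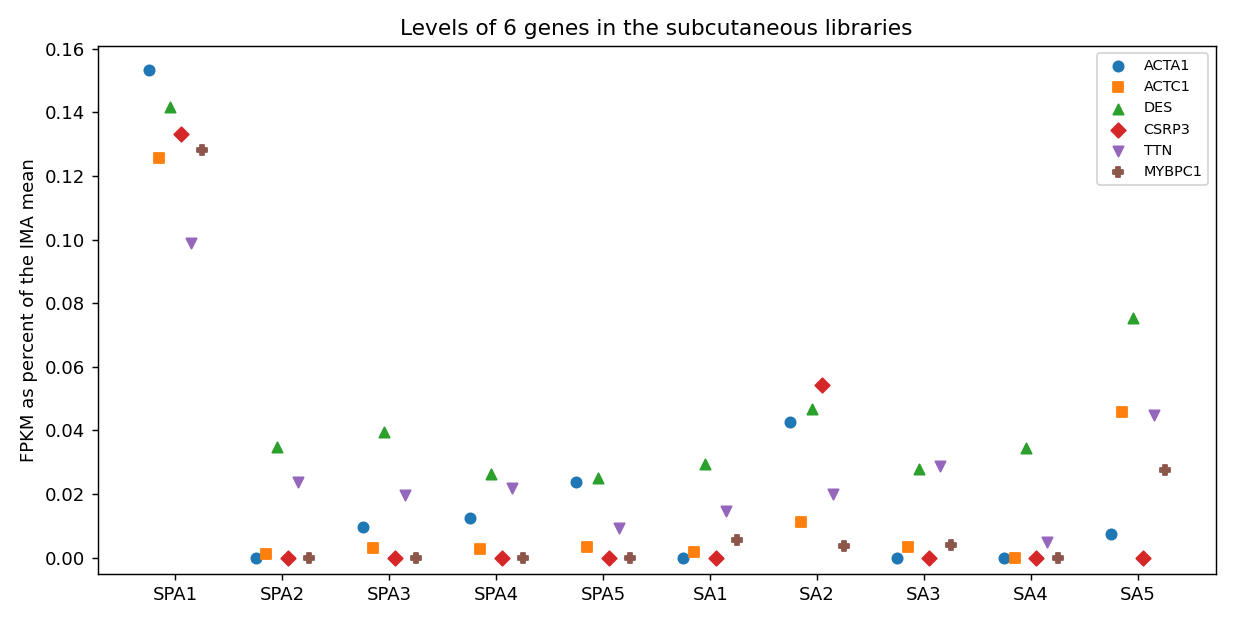
The level of ACTA1, ACTC1, DES, CSRP3, TTN and MYBPC1 in each SPA and SA library is plotted as a percentage of the mean level of the same gene in IMA. In SPA1 all 6 lie between 0.0989% and 0.153%, and in the other 9 libraries they lie at or below 0.0752%. The other 4 genes are not drawn, because their values reach higher, up to 0.647% for LDB3, 1.5% for ACTN2, 3.43% for NEB and 4.13% for TCAP.

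The cell types were compared at each stage to ask how the depots differed before and after induction. Before induction all 10 genes were higher in IMPA than in SPA, with log2 differences from 1.93 for LDB3 to 9.99 for ACTC1, and after induction all 10 were higher in IMA than in SA, from 3.65 for LDB3 to 11.04 for ACTC1. All of these passed in limma, with largest adjusted p values of 2.7e-09 and 1.7e-12, beside 42.3% of all genes called higher in IMPA and 29.0% called higher in IMA. The groups overlapped for none of the 10 genes at either stage, as was the case in this direction for 35.9% and 24.0% of all genes. All 10 had passed the filter through their intramuscular levels, which favours a higher value there, so these counts are no test of the group. The median difference of the 10 genes was 4.46 before and 6.88 after induction, beside medians of 0.05 and -0.09 over all genes. These differences are on the log2(FPKM + 1) scale, which understates the contrast where a group is near 0. With a pseudocount of 0.1 the medians were 7.30 and 9.87, the difference of LDB3 before induction was 4.54 in place of 1.93, and TCAP, at 3.21, was then the smallest of the 10. ACTN2 and NEB, the genes with the highest mean subcutaneous levels, differed by 3.96 and 3.17 before induction and by 6.58 and 4.69 after it. The comparisons share their libraries with the comparisons of stage and are not independent of them.

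Whether the change between the stages differed between the cell types was tested as the interaction of stage and cell type over all 20 libraries. The change was more positive in intramuscular cells for 10 of 10 genes, by 1.06 for ACTC1 to 3.48 for MYBPC1 on the log2 scale, beside 20.7% of all genes called in this direction. All 10 had passed the filter through their intramuscular levels, and most were below 1 FPKM in subcutaneous cells. A fall could hardly show there, so for such genes the interaction largely repeats the intramuscular difference. It was 1.71 beside 1.69 for LDB3, and 3.48 beside 3.45 for MYBPC1. The count is thus no separate support for the calls in IMA against IMPA. MYBPC1 (adjusted p = 1.5e-17), ACTN2 (2.61, adjusted p = 4.2e-14) and CSRP3 (1.78, adjusted p = 3.0e-12) had the smallest adjusted p values in limma. ACTC1 was the weakest, with 1.06 ± 0.411 (SE) and an adjusted p of 0.034. It passed under 18 of 30 alternative settings, with adjusted p values between 1.2e-06 and 0.37. Leaving out any of IMPA1, IMPA2, IMPA4, IMA4, IMA5, SA1, SA3 or SA4 ended the call, at adjusted p values of 0.050 to 0.061, while leaving out SPA1 gave 0.65 with an adjusted p of 0.014. The interaction of NEB was 1.52 for the sum and 0.02 for XM_018062902.1, which did not pass (adjusted p = 0.99).

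Other genes of the thin filament, Z-disc and M-band were taken from a list of 42, of which 38 passed the filter. In IMA against IMPA, 32 of the 38 were called higher and 3 lower, beside 19.9% and 40.2% of all genes, with a median difference of 1.10. ANKRD1, a titin-binding ankyrin repeat protein induced by stretch, had the highest mean of the list and rose from 498 ± 43.9 to 1068 ± 57.3 FPKM (SD, n = 5; log2 difference 1.10, adjusted p = 3.7e-08). CRYAB, a small heat shock protein that binds desmin and titin, rose from 233 ± 17.0 to 843 ± 58.7 FPKM (log2 difference 1.85, adjusted p = 3.7e-10). KLHL41, which stabilises nebulin, rose by 1.09 and SMPX, a small muscle protein, by 2.30. The 3 called lower were PDLIM7, FLNC and CAPZB, named for their direction after their values were seen. FLNC, an actin cross-linker also found outside muscle, averaged 67.6 FPKM in IMPA and 49.8 FPKM in IMA, and CAPZB, the barbed-end capping subunit of many cell types, averaged 26.0 and 23.8 FPKM.

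In SA against SPA, 1 of the 38 was called higher and 8 lower, with a median difference of -0.02. Over all genes 26.1% were called higher and 26.0% lower, so the number called lower was no larger a share of this list than of all genes. Many of the 38 had passed the filter through their intramuscular levels and could hardly be called here. MYOZ2, for example, averaged 0 FPKM in SPA and 0.0180 FPKM in SA. The share among related genes expressed in subcutaneous cells was not counted. TMOD1, which caps the pointed end of thin filaments, fell by 1.61 on the log2 scale, from 8.71 ± 0.561 to 2.18 ± 0.267 FPKM (SD, n = 5; adjusted p = 1.2e-09). MYBPH fell by 1.23, from 9.18 ± 0.811 to 3.35 ± 0.399 FPKM (adjusted p = 3.6e-08). PALLD, an actin-bundling protein that is also found in fibroblasts, fell by 0.80, from 64.4 ± 2.03 to 36.5 ± 0.943 FPKM (adjusted p = 1.0e-09). TMOD1 and MYBPH thus moved in opposite directions in the cell types, as ACTN2 and NEB did, and their interactions were 2.43 and 3.09 (adjusted p = 3.6e-14 and 2.6e-16). The gene called higher, XIRP1, averaged 0.0724 FPKM in SPA and 0.134 FPKM in SA. Between the cell types, 35 of the 38 were called higher in IMPA and all 38 in IMA, beside 42.3% and 29.0% of all genes. In the interaction 33 were called in the direction of the 10 genes and none in the other, beside 20.7% of all genes in that direction. Passing the filter through intramuscular levels favours a higher intramuscular value, so these counts between the cell types and in the interaction are no test of the list.

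The genes whose profile was most like the mean of the 10 were found over the 20 libraries. Likeness was the root mean square difference of centred log2(FPKM + 1) values, with a median of 3.15 over 11422 other genes. The 5 nearest were MYOZ2 (0.187), HES6 (0.251), PGAM2 (0.254), SMPX (0.268) and CKM (0.318). MYOZ2 is a Z-disc protein that binds alpha-actinin, HES6 a transcriptional regulator expressed in differentiating myoblasts, PGAM2 and CKM muscle enzymes of energy supply. Among the 10 genes themselves TTN (0.323), CSRP3 (0.365) and ACTN2 (0.504) were nearest to their mean and ACTC1 (2.26) farthest. The muscle regulators changed unevenly. MYOG averaged 649 ± 66.9 FPKM in IMPA and 736 ± 35.0 FPKM in IMA (SD, n = 5; log2 difference 0.18, adjusted p = 0.027). MYOD1 fell by 0.71, from 43.2 ± 1.84 to 26.1 ± 2.51 FPKM (adjusted p = 1.7e-06), and MYF6 rose by 2.09, from 4.00 ± 0.318 to 20.3 ± 1.66 FPKM (adjusted p = 1.9e-10).

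Within groups some libraries were repeatedly high or low for these genes. IMPA4 was the highest IMPA library for 5 genes and IMPA5 for 4, and IMPA1 was the lowest for 6. IMA4 was the highest IMA library for 5 genes and IMA5 for 4, while IMA1 and IMA3 were each the lowest for 5. Even so, no IMPA library overlapped the IMA range for any of the 10 genes.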

How the data were processed

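RNA of 20 goat cell libraries, 5 per group, was sequenced by the authors. Reads were aligned to the goat genome with HISAT2 2.0.4, and the authors deposited FPKM values for each transcript from StringTie 1.3.1 and Ballgown. GATK 2.6-5 is also named in the submitters' processing notes. No counts or reads were used here, so depth and counting error are unknown. The deposited mRNA table held 43766 transcripts, which were summed to 20587 symbols, of which 6 joined more than 1 gene identifier. All 53 transcripts matched RefSeq identifiers.

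Tests were run on log2(FPKM + 1), unscaled, so fold changes understate those of low genes. Genes with a mean of at least 1 FPKM were tested. Groups were compared two-sided in limma 3.58.1 (R 4.3.3) with a variance trend, in fits of 10 libraries, or of 20 for the interaction, with Benjamini-Hochberg adjustment over 11432 genes. A call is an adjusted p under 0.05. Libraries were not paired, because no label says which goat or culture a number stands for. Deviations of same-numbered IMPA and IMA libraries from their group means correlated at 0.0417 to 0.121. Numbers 1, 2, 3 and 5 of IMPA correlated best with the same number of IMA. The steps were tested on simulated data. Summaries used Python 3.11.15, numpy 2.4.6, pandas 2.3.3 and matplotlib 3.10.9.

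The 10 genes, the related list, the paralogs and the markers were chosen with earlier results of these data known. All 10 were named, with related genes of the 3 highest means or 3 smallest p values in a comparison of stages, and paralogs. Others were singled out by direction or level once their values were known. Settings tried besides were filters of 0.1 FPKM or none, a pseudocount of 0.1, upper-quartile and quantile scaling, no variance trend, all groups in a fit, the replicate block, the mapped share, the transcript of highest mean, and leaving out libraries. The lncRNA tables were not used here.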

Additional observations from a re-analysis of the deposited data

Results flagged for a closer look

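Libraries that stood apart from the other 4 of their group were sought in 40 sets of a gene and a group, by the gap to the nearest library as a share of the range, with a critical value of 0.71. This was the case in 13 sets. The chance rate of about 1 in 20 behind the critical value is for independent sets of normal values, so it cannot be set against this number. The sets share libraries, and CSRP3 in SPA and SA and MYBPC1 in SPA were listed at 0 in all libraries but 1. SPA1 was high for 6 genes, with ACTC1 at 3.37, DES at 2.47, ACTA1 at 1.03, CSRP3 at 0.282, MYBPC1 at 0.187 and TTN at 0.0779 FPKM. SA5 was high for ACTC1, at 1.23 FPKM, and for MYBPC1, at 0.0401 FPKM. SA2 was high for ACTA1, at 0.286 FPKM, for CSRP3, at 0.115 FPKM, and for LDB3, at 0.0536 FPKM. In intramuscular libraries LDB3 was high in IMPA4, at 3.74 FPKM, and CSRP3 was low in IMA3, at 179 FPKM.

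The change with induction differed between intramuscular and subcutaneous cells for all 10 genes by the interaction term in limma. On the log2 scale the intramuscular change exceeded the subcutaneous one by 1.92 for ACTA1, 1.06 for ACTC1, 2.61 for ACTN2, 1.34 for TTN, 1.52 for NEB, 1.68 for DES, 1.71 for LDB3, 2.37 for TCAP, 1.78 for CSRP3 and 3.48 for MYBPC1.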

How the results depend on the processing

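The 10 calls in IMA against IMPA, IMPA against SPA, IMA against SA and the interaction each stayed within 1.5 times of their number under every alternative run. Single calls were lost within that margin. TTN and NEB in IMA against IMPA, and MYBPC1 in IMPA against SPA, each passed in 19 of 20 settings. In the interaction ACTC1 passed in 18 of 30 and NEB in 29 of 30. For SA against SPA, 2 genes were called, and 1 with the mapped share as a covariate or with the transcript of highest mean over the 20 libraries in place of the sum. The mapped share separates SPA from SA as the stage does. For NEB that transcript was listed at 0 in 4 of 5 SPA and 4 of 5 SA libraries, so it could hardly be called. With the mapped share, the genes called in all were 731 in place of 6867 for IMA against IMPA, 2332 in place of 8588 for IMPA against SPA and 2045 in place of 6319 for the interaction. That transcript turned the NEB difference of IMA against IMPA to -0.0223, and for MYBPC1 gave 0.58 for IMPA against SPA (adjusted p = 0.21). All other changes of sign concerned SA against SPA, at values that did not pass. With the mapped share they were 0.50 for ACTA1, 1.07 for ACTC1, 0.0447 for TTN, 0.72 for DES, 0.0357 for LDB3, -0.39 for TCAP, 0.26 for CSRP3 and 0.10 for MYBPC1. TCAP was -0.0303 with a pseudocount of 0.1 and -0.0182 with quantile normalization, where MYBPC1 was 0.0558. Without SPA1 and SA5, ACTC1 was 0.0470, DES 0.0490, CSRP3 0.0393 and MYBPC1 0.00717. Leaving out each library in turn gave -0.360 to 0.250 for ACTC1, -0.0201 to 0.0043 for TTN, -0.184 to 0.155 for DES, -0.130 to 0.103 for TCAP, -0.0716 to 0.0315 for CSRP3 and -0.0448 to 0.0171 for MYBPC1. The cause of these changes was not tested. With the replicate block, the numbers of the 10 genes called were 10, 2, 10, 10 and 10, as without it, and the genes called in all were 6826, 5602, 8530.0, 8059 and 6304 in the order IMA against IMPA, SA against SPA, IMPA against SPA, IMA against SA and interaction. The correlations of same-numbered libraries lay between 0.0417 and 0.121 for IMPA and IMA and between -0.242 and 0.122 for SPA and SA. Depth is unknown without counts, which limits the subcutaneous values near 0 most.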
